A study of Mus musculus with 9 samples.

Results

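Erythroid cells and reticulocytes, the late red blood cell lineage, were described in mouse brain and brain tumor tissue, from transcripts counted in single droplets. In each of 9 libraries the 10000 barcodes with most UMIs (unique molecular identifiers, each standing for 1 captured transcript) were considered, and a barcode was kept if it held at least 200 genes and under 15% mitochondrial UMIs. A kept barcode was called an erythroid member if Hba-a1, Hba-a2, Hbb-bs and Hbb-bt together made at least 5% of its UMIs and it held at least 1 UMI of Alas2. This gave 572 members among 64643 kept barcodes, 306 of them from control and 266 from tumor mice. The members were thus chosen by their haemoglobin and Alas2 UMIs, so the levels of these genes are described without a test. The other transcripts of these barcodes entered the rule only through the totals of UMIs and genes and the mitochondrial limit.

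Erythroid cells mature from nucleated erythroblasts to reticulocytes, which have lost the nucleus but still hold RNA, and then to erythrocytes. During maturation haemoglobin transcripts come to dominate, haem is made in steps shared by mitochondria and cytosol, and organelles are cleared by mitophagy and the ubiquitin system. Hba-a1 and Hba-a2 encode adult alpha globin, Hbb-bs and Hbb-bt adult beta globin, and Alas2 the erythroid enzyme of the first step of haem synthesis.

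The promoters of rule genes and of Bpgm, the enzyme that makes bisphosphoglycerate in red cells, are shown because the selection and the check of the label rest on these genes. Each line gives the 250 bases before the gene's start, 5′ to 3′ on the gene's strand, from RefSeq on GRCm38.p6. Capitals mark AGATAA, a motif of GATA factors, and CCNCNCCC, a motif of the erythroid factor KLF1, searched on both strands with overlaps allowed.
Hba-a1: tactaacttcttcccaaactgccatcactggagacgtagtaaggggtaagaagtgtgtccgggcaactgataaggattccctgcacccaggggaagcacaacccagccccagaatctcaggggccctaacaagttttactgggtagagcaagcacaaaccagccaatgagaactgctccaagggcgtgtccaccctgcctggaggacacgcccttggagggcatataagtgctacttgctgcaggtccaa
Hbb-bs: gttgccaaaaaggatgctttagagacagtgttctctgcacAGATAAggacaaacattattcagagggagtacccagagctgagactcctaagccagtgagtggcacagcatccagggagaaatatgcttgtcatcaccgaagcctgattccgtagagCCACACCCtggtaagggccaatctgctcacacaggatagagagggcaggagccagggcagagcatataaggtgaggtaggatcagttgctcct
Hbb-bt: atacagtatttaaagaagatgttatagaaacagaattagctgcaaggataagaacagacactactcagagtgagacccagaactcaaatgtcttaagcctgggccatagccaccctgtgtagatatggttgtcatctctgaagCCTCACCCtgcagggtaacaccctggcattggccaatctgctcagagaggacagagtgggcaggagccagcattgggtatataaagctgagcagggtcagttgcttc
Alas2: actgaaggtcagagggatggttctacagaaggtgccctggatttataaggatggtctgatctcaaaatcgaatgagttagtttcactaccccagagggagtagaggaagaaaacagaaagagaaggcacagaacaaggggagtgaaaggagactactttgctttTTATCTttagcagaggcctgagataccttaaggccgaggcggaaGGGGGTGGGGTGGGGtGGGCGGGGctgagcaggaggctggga
Bpgm: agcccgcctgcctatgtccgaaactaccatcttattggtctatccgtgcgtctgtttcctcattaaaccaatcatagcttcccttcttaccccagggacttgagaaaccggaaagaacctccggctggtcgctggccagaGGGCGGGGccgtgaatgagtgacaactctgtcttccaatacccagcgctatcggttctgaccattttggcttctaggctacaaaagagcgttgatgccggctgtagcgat
The windows lie at chr11:32283422-32283671 (plus strand) for Hba-a1, chr7:103827929-103828178 (minus strand) for Hbb-bs, chr7:103813924-103814173 (minus strand) for Hbb-bt, chrX:150547167-150547416 (plus strand) for Alas2 and chr6:34476106-34476355 (plus strand) for Bpgm. AGATAA stood in the window of Hbb-bs, 205 to 210 bases before the start, and in that of Alas2, on the opposite strand 81 to 86 bases before it. CCNCNCCC stood once each in Hbb-bs, Hbb-bt and Bpgm and at 4 places, some of them overlapping, on the opposite strand of Alas2, between 19 and 42 bases before its start. Over 32851 promoters, 9.99% held AGATAA, 45.9% held CCNCNCCC and 2.78% held both. The Hba-a2 window shared a run of 247 bases with that of Hba-a1, whereas the longest run shared by Hbb-bs and Hbb-bt was 14 bases. Transcripts of near-identical genes can be split by the counting, so alpha globin is given as a sum. The same limit holds for the split of beta globin between Hbb-bs and Hbb-bt, whose promoters do not speak to their transcripts. Slc25a37 had no entry in the promoter table.

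Tissue came from 4 control mice and 5 tumor mice of 6 to 8 weeks. The labels give the controls as NestinCreERT2;TdT and the tumor mice as NestinCreERT2;Fus1, a model of ZFTA-RELA ependymoma. Both groups carried an inducible Cre driven from Nestin, a gene of neural progenitors, while TdT is listed for the controls and Fus1 for the tumor mice. Dissociated cells were enriched on Percoll, stained with DAPI and an antibody to Ter 119, an antigen of the erythroid surface, and sorted. The labels do not state the gate of these libraries, while the study shows a Ter119-negative gate for its sorts of CD45+ cells. How many erythroid cells the sort removed is not known, and the member counts describe what remained in the libraries.

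Control libraries held 101060608 to 178086164 UMIs and tumor libraries 14967680 to 69411387. Pairs of libraries shared at most 0.45% of their considered barcodes, counted without control 4, whose barcode list is shorter than its matrix. Tumor 3 stood apart, with haemoglobin at 16.1% of all UMIs of its kept barcodes against 0.439 to 0.639% in controls. Its 3000 barcodes with fewest UMIs, called free RNA here although these may also hold cells, held 1.88% haemoglobin against 0.0518 to 0.0857% in controls. Tumor 3 has 9001 barcodes in all, so every one was considered. Its free RNA barcodes could thus also count as kept barcodes or members, unlike in the other libraries. Because tumor 3 holds the most members, counts of genes for the erythroid lists are also given without it.

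Members were few in every library, and their number varied more among tumor mice than among controls. Controls 1 to 4 held 73, 98, 67 and 68 members, or 0.898, 1.32, 1.04 and 0.951% of kept barcodes. Tumors 1 to 5 held 0, 61, 176, 8 and 21, or 0, 1.02, 2.62, 0.0800 and 0.210%. Control shares lay close together, tumor 3 stood above them, tumor 2 among them, and tumors 1, 4 and 5 below. The 0 of 2846 barcodes in tumor 1 allows a share of up to 0.105% (3 counts of the total, counting error only). The share was 1.05 ± 0.188% (SD, n = 4) in controls and 0.788 ± 1.10% (n = 5) in tumors, and the means did not differ beyond the spread between mice (two-sided exact permutation test, p = 0.683). Without tumor 3 the tumor mean was 0.328% and the difference -0.724 percentage points (exact permutation p = 0.0857). The sign of this difference changed with the processing: with at least 500 genes per barcode the tumor mean was lower (-0.790 percentage points, exact permutation p = 0.0159), and with all deposited barcodes it was higher (0.561, p = 0.444). With each barcode thinned to 1000 UMIs and shallower barcodes left out, tumor 3 had 5.28%, after 4190 of its barcodes were left out, and controls had 0.462 to 0.794%.

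**Figure D1:**
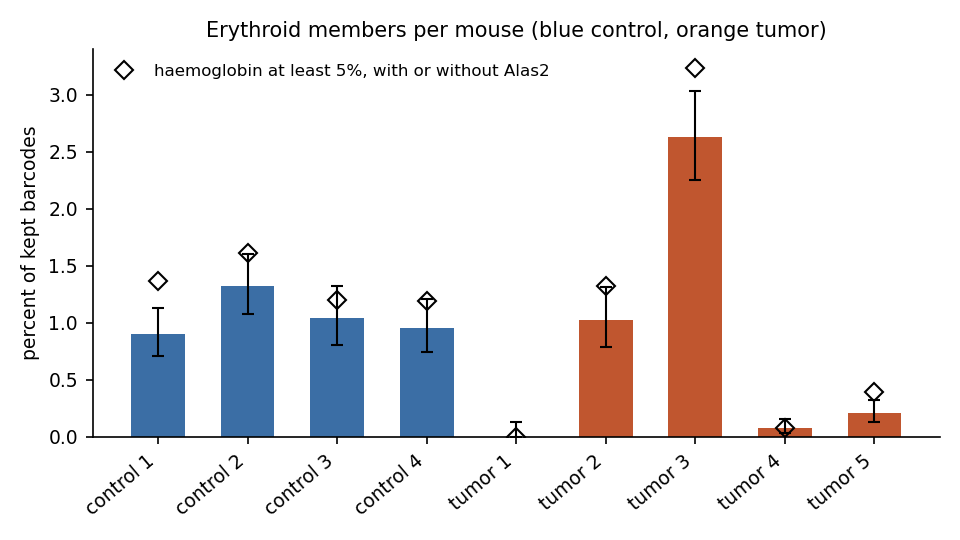
Bars give erythroid members as percent of kept barcodes in each of the 9 mice, with exact 95% Clopper-Pearson intervals that cover counting error only. Diamonds give all barcodes with at least 5% haemoglobin, with or without Alas2. The 4 controls sit between 0.898 and 1.32%, and the 5 tumors range from 0 to 2.62%.

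Haemoglobin made a larger part of the UMIs of tumor members. Its median share was 40.6, 42.5, 47.7 and 40.6% in controls 1 to 4 and 66.6, 94.3, 64.1 and 58.9% in tumors 2 to 5. Every tumor median lay above every control median. The share depends on the other UMIs of a barcode as well as on haemoglobin. Mean UMIs of Hba-a1 per member were 165, 308, 303 and 307 in controls and 232, 2465, 178 and 265 in tumors 2 to 5. Those of Hbb-bs were 454 to 863 in controls and 925, 5629, 1150 and 1212 in these tumors. The median free RNA barcode held 691 to 1338 UMIs in controls and 559 to 649 in tumors 2 to 5. The part of free RNA in the shares was not tested. The highest share of a control member was 66.8%, and 150 tumor members held at least 80%, of which 147 came from tumor 3, 2 from tumor 4 and 1 from tumor 5. Alas2 had a median of 2 to 3 UMIs per member in all mice with members but tumor 3, where it was 18.5 and reached 81.

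Around the haemoglobin, tumor members held fewer other transcripts. UMIs outside the 5 rule genes had medians of 1202, 2139.5, 1740 and 2182 per member in controls and of 725, 631, 902 and 950 in tumors 2 to 5. No tumor median reached a control median. Over the mice with at least 20 members, which are all controls and tumors 2, 3 and 5, the median was 1816 ± 455 (SD, n = 4) against 769 ± 164 (n = 3), and the exact permutation test gave p = 0.0571 (adjusted p = 0.114 over 6 measures, with 0.0286 the smallest p that 35 splits can give). The gene minimum, the ranking by UMIs and the haemoglobin share of the rule all bear on this number. The last barcode considered had 1473 to 2695 UMIs in controls and 997, 500, 2113 and 1149 in tumors 2 to 5. The test thus cannot separate a difference of the members from one set by the selection. With at least 500 genes per barcode, where of the tumors only tumor 3 kept 20 members and mice with at least 5 (tumors 2 to 5) were used instead, the difference was -391 UMIs (exact permutation p = 0.229) against -1047. Members of controls had medians of 776 to 1206 genes and those of tumors 295 to 574.

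**Figure D2:**
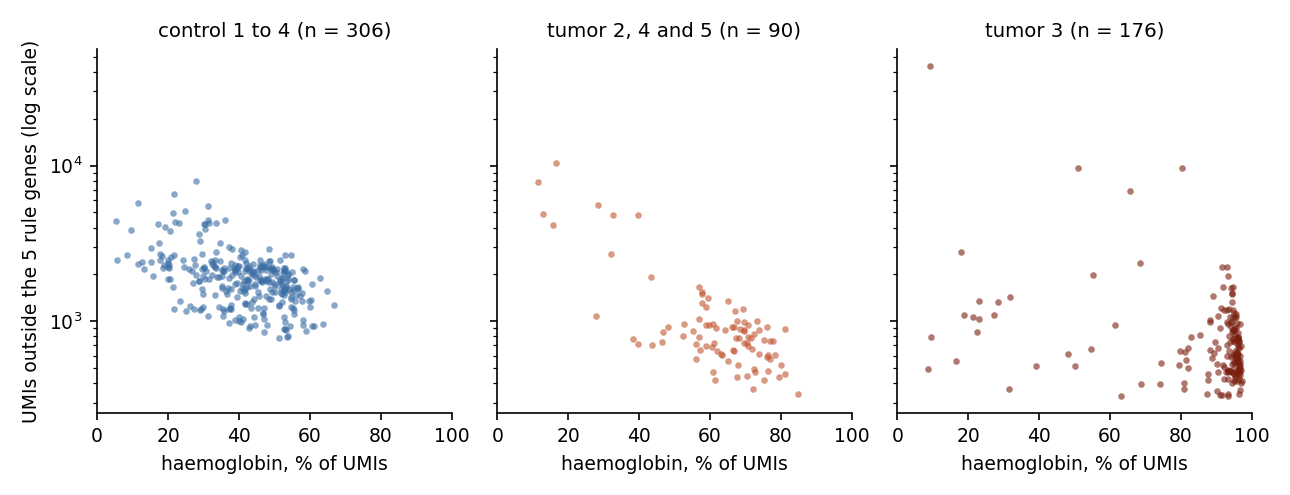
Each point is 1 member, with haemoglobin as percent of its UMIs on the horizontal axis and UMIs outside the 5 rule genes on a logarithmic vertical axis, for controls 1 to 4 (306 members), tumors 2, 4 and 5 (90 members) and tumor 3 (176 members). Control members reach 66.8% haemoglobin, and 147 of the members of tumor 3 lie at 80% or above.

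The make-up of the haemoglobin was steady in controls and varied among tumors. Alpha globin made 35.3, 35.3, 34.8 and 34.9% of haemoglobin UMIs in controls and 27.6, 38.5 and 24.2% in tumors 2, 3 and 5, so tumor 3 lay above all controls and tumors 2 and 5 below them. The means were 35.1 ± 0.273% (SD, n = 4) and 30.1 ± 7.48% (n = 3). Hbb-bt made 16.3, 16.1, 15.9 and 14.2% of beta globin UMIs in controls and 13.7, 19.8 and 17.6% in these tumors, with overlapping groups. The counting may split reads between Hbb-bs and Hbb-bt, so this share may not be that of the transcripts. These shares are built from the genes that chose the members, so no p is given for them, although they count among the 6 measures over which p-values were adjusted. Of the embryonic and minor globins, Hbq1a and Hbq1b, a near-identical pair of theta globin genes, had UMIs in members. Hbb-bh2, Hbb-y and Hba-x had none, and Hbb-bh1 had UMIs in members of control 4 only.

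The markers of the label that the rule did not use were present in the members. CPM below means the UMIs of a gene divided by all UMIs outside the 5 rule genes and scaled as is usual for CPM, so that 1% is 10000 CPM, summed over the barcodes of a mouse. Bpgm stood at 796, 1515, 1582 and 1052 CPM in members of controls 1 to 4 and at 2201, 13039, 2343 and 2239 CPM in tumors 2 to 5, against 38.7 to 82.8 CPM in the other kept barcodes of these mice. Slc25a37, mitoferrin, which carries iron into mitochondria, stood at 372, 346, 407 and 440 CPM in control members and at 431, 1370, 63.3 and 357 CPM in tumors 2 to 5, against 10.1 to 37.9 CPM in other barcodes. For both genes the lowest value in members lay above the highest in other barcodes, and members were higher in all 8 mice that had any. At least 1 Bpgm UMI was found in 57.1 to 88.1% of members per mouse and in 6.80 to 31.4% of other barcodes. For Slc25a37 these shares were 12.5 to 60.2% and 2.62 to 11.9%. In tumor 4 the Slc25a37 value rested on 1 of its 8 members. The median depth of members and of all kept barcodes was similar in controls (2052 to 3713 against 1957 to 3730 UMIs), while in tumor 3 it was 12550 against 814.

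Few barcodes lay near the haemoglobin limit of the rule, and more near the Alas2 limit. Members with 5 to 10% haemoglobin were 7 in number, the lowest at 5.20%, and had 34.2 CPM of Bpgm. Just outside, 10 barcodes with Alas2 had 2 to 5% haemoglobin, the highest at 4.39%, and 37.7 CPM of Bpgm. A further 377 barcodes held Alas2 with under 2% haemoglobin, with Bpgm at 36.5 CPM. On the Alas2 side, the 131 members with 1 Alas2 UMI had 996 CPM of Bpgm, the 441 with 2 or more had 4909 CPM, and the 164 barcodes with enough haemoglobin but no Alas2 UMI had 386 CPM.

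Members were compared gene by gene with the other kept barcodes of the same mouse, in the 7 mice with at least 20 members, to find the transcripts kept beside haemoglobin. Of 15741 genes tested, 400 were higher in members (2.54%) and 1310 lower (8.32%) at an adjusted p under 0.05 (edgeR's quasi-likelihood test with the mouse as a block, Benjamini-Hochberg adjustment). The median log2 difference over all genes was -0.29. The balance of directions depended on the tool, since limma voom called 2045 genes higher and 576 lower (median 0.19) and DESeq2 250 higher and 404 lower (-0.10). Without tumor 3 edgeR called 9.8% of genes, 195 higher (1.16%) and 1451 lower (8.64%), and without control 2, 3 or 4 it called 1105, 1098 and 1088 genes in all. Against free RNA of the same mouse, a reference chosen after seeing the data, 248 of 11077 genes (2.24%) differed, 239 higher (2.16%) and 9 lower (0.0812%). Of the 400 genes, 218 were also higher than free RNA, which is 54.5% of the first list and 91.2% of the second. Both comparisons use the same member sums, and in tumor 3 free RNA barcodes can also be kept barcodes or members.

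The transcripts with the largest differences from other barcodes were Isg20, Ube2l6 and Tent5c, among those with at least 200 CPM in members. Isg20, an exonuclease, stood at 269, 324, 354 and 318 CPM in control members and 616, 2914 and 487 CPM in tumors 2, 3 and 5, against a mean of 3.27 CPM in other barcodes (log2 difference 8.01 ± 0.30 SE, edgeR adjusted p = 6.44e-152). Ube2l6, a conjugating enzyme for ubiquitin and ISG15, stood at 186, 463, 430 and 281 CPM in controls and 693, 8412 and 227 CPM in tumors, against 5.55 CPM (7.42 ± 0.31, edgeR adjusted p = 1.19e-120). Tent5c, a poly(A) polymerase, stood at 320, 589, 595 and 532 CPM in controls and 523, 2137 and 649 CPM in tumors, against 6.21 CPM (7.13 ± 0.28, edgeR adjusted p = 6.64e-137). Of these 3 genes no library had more than 19.3 CPM in other barcodes, so members and other barcodes did not overlap. Rsad2, the antiviral protein viperin, was higher by 5.98 on the log2 scale, Bpgm by 5.35 and Mkrn1, a ubiquitin ligase, by 4.53. Cd24a, a surface glycoprotein, was higher by 4.18, Slc25a37 by 4.17, Gpx1, glutathione peroxidase, by 3.75, and Fech, ferrochelatase of the last step of haem synthesis, by 3.64. The 19 leading transcripts plotted passed the threshold with any 1 mouse left out.

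**Figure D3:**
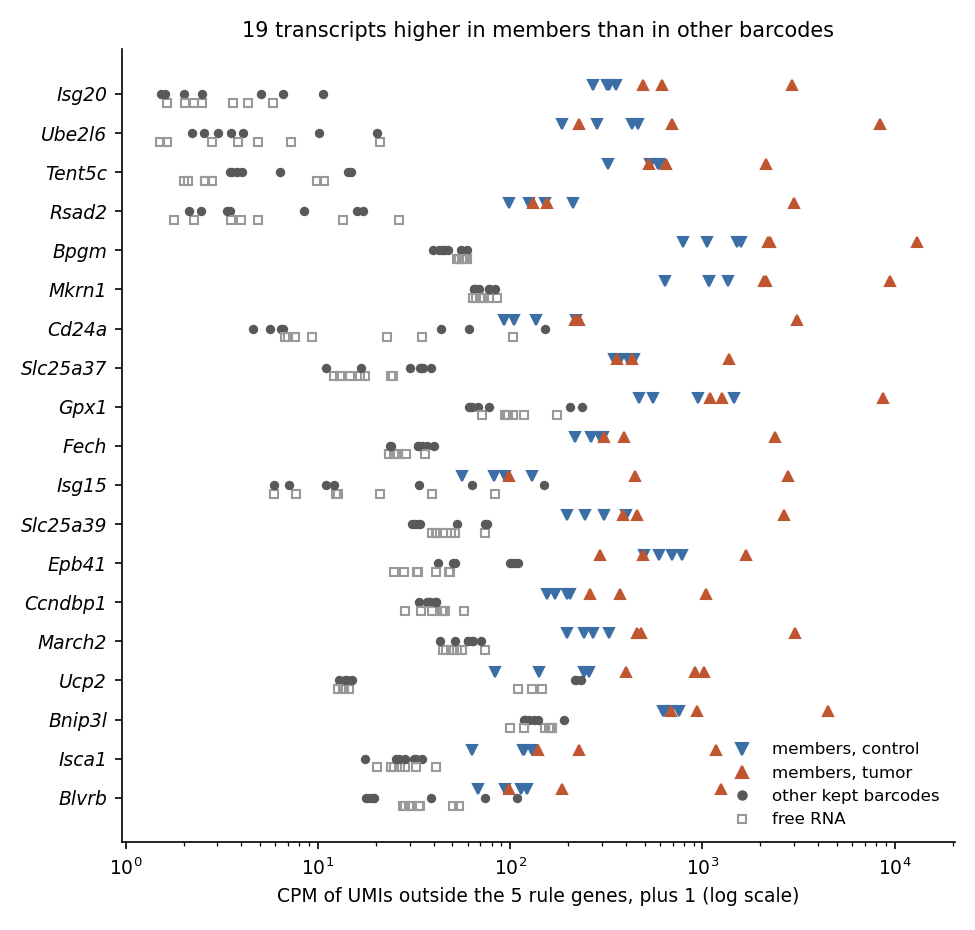
For 19 transcripts among those with the largest log2 difference between members and other kept barcodes (at least 200 CPM on average in members), CPM plus 1 is shown on a logarithmic axis for members of controls and tumors, other kept barcodes and free RNA of the 7 tested mice. In each mouse the member value lies above that of other barcodes, as the naming rule required, and the highest member value of each transcript is that of tumor 3.

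Haem and iron genes were higher in part. Of 15 tested haem synthesis genes, 5 were higher in members and 0 lower, with a list median of 0.47 on the log2 scale beside -0.29 over all genes. These were Slc25a37, Fech, Slc25a39, a mitochondrial carrier (3.37), Fam210b (2.48) and Urod of the middle of the pathway (1.18), whereas Cpox of a later step (-0.02, edgeR adjusted p = 0.985) did not pass. Of 17 iron genes 5 were higher, namely Ftl1, the ferritin light chain (2.35), Ncoa4, which delivers ferritin for breakdown (2.50), and Isca1, Glrx5 and Iscu of iron-sulphur cluster assembly (2.79, 1.88 and 1.22). Hmox1, the inducible haem oxygenase, was lower (-1.99). Tfrc, the transferrin receptor, had at least 45.2 CPM in control members and 15.4, 110 and 64.9 CPM in tumors 2, 3 and 5, against a mean of 92.6 CPM in other barcodes, and did not pass (-0.17, edgeR adjusted p = 0.742).

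Membrane genes included transcripts that other barcodes held almost none of. Of 16 tested, 6 were higher and 0 lower, with a list median of 0.16, or 0.59 with Aqp1, at 0 in the tested members, set at its bound. Slc4a1, the anion exchanger, stood at 41.3, 49.4, 60.3 and 36.7 CPM in control members and 30.8, 398 and 130 CPM in tumors 2, 3 and 5, against at most 0.372 CPM in other barcodes (9.53 ± 0.46, edgeR adjusted p = 1.03e-90). Members and other barcodes did not overlap, and tumor 3 was the highest. Tspo2, an erythroid membrane protein, was higher by 8.23. Epb41, a protein of the membrane skeleton, was higher by 3.07 and Slc2a1, a glucose transporter, by 1.55. Epb42, Rhag, Rhd, Kel and Ermap had UMIs in members of 1 to 3 mice and were not tested, and Icam4 had none.

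A majority of the tested enzymes and organelle clearance genes were higher in members, and the rest did not pass. Of 17 tested enzyme and antioxidant genes, 10 were higher and 0 lower, with a median of 1.34. Beside Bpgm and Gpx1 these were Blvrb, biliverdin reductase (2.50), Hagh (2.01), Txnrd2 (1.91), Cat, catalase (1.80), Car2, carbonic anhydrase (1.69), Gclm of glutathione synthesis (1.62), Nt5c3 (1.34) and Prdx2 (0.97). Car1 and Pklr had 0 UMIs in members, and Ahsp was not analysed here. Of 21 tested genes of organelle clearance, ubiquitin and survival, 12 were higher and 0 lower, with a median of 1.12. They included Bnip3l, the mitophagy receptor of reticulocytes (2.79), Ube2o, a ubiquitin enzyme of reticulocytes (2.26), Rnf10 (2.04), Gabarapl2 of autophagy (1.94), Bcl2l1, an inhibitor of cell death (1.72), Map1lc3b (1.57) and Ubb, ubiquitin (1.12). Without tumor 3 the counts of higher genes were 4 for haem, 4 for iron, 6 for membrane, 7 for enzymes and 11 for organelle clearance.

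Transcripts of erythroid transcription factors were scarce. Gata1 had UMIs in members of tumor 3 only, at 9.96 CPM, as did Klf1, at 4.98 CPM, and Nfe2, Gfi1b and Myb had none. Of 14 tested genes of the list, E2f2 (4.41) and Lmo2 (1.86) were higher and Bcl11a (-0.97) was lower, with a median of 0.13, or 0.28 with Myb at its bound. Of 15 proliferation genes only Ube2c, a ubiquitin enzyme of mitotic exit, was higher (3.54, edgeR adjusted p = 5.22e-26), and Mki67, a marker of dividing cells, had 0 UMIs in members of all 4 controls and 8, 4, 1 and 1 in those of tumors 2 to 5. Of 10 translation factors, Pabpc1, the poly(A) binding protein (2.33), and Eif1 (0.73) were higher. Of 11 stress and immediate early genes none passed against other barcodes in either direction (list median 0.23), while Fos, Hspa1a and Hspa1b were higher than free RNA (1.60, 1.76 and 1.88).

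Transcripts of other cell types were mostly at or below the level of the other barcodes, with endothelial genes as the exception. All 8 microglia and macrophage markers were lower in members (median -1.44), 0 of 6 astrocyte and 0 of 6 oligodendrocyte markers passed, and of 8 neuronal markers Meg3 alone was lower. Of 7 markers of neural progenitors and tumor cells Sox2 was lower (-0.94), and 3 of 3 tested neutrophil markers were. All 6 endothelial markers were higher (median 2.11). They were held by few members: 21 of the 572, with at least 5 UMIs of these genes, held 1481 of 1579 endothelial UMIs (93.8%), and 475 members held 0. Of the 21, 11 came from tumor 3 and 0 from control 1, and their median haemoglobin share was 24.7% against 53.1% in the rest. Without them, an alternative chosen after seeing the data that also drops tumor 5, which then has 19 members, 0 endothelial markers were higher and 4 lower (median -1.36). In the same mice with all members, 6 were higher and 0 lower (median 1.93). The members left out were chosen by these same 6 genes, so a fall of their levels was fixed in advance. Without the 21 members the counts of higher genes were 5 for haem, 5 for iron, 6 for membrane, 10 for enzymes and 12 for organelle clearance, with 2 iron and 1 membrane gene lower. Over all genes of that fit 226 of 16092 (1.40%) were higher and 1249 (7.76%) lower. Of 10 interferon-stimulated genes, Isg15 (3.39), Rsad2, Irf7 (2.78), Ifit1 (1.32) and Ifitm3 (1.14) were higher in all members, and Isg15, Rsad2 and Irf7 without those 21 and tumor 5. None of 2 lymphocyte and 2 platelet markers passed.

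Not all of these list genes depended equally on single mice. Urod, Iscu, Hmox1, Txnrd2, Nt5c3, Prdx2, Eif1, Sox2, Irf7, Ifit1 and Ifitm3 each missed the threshold with at least 1 mouse left out. Without tumor 3, Irf7 was at 1.43 (edgeR adjusted p = 0.11), Ifit1 at 0.81 (edgeR adjusted p = 0.43) and Sox2 at -0.77 (edgeR adjusted p = 0.14), while Isg15 was at 2.58 and Rsad2 at 5.30 and both passed.

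The remaining RNA of control members resembled free RNA of the same library and, to a lesser degree, its other barcodes. Across 3061 to 3665 genes per mouse, the log CPM of members correlated with that of free RNA with r = 0.865, 0.924, 0.881 and 0.917 in controls and 0.820, 0.566, 0.499 and 0.613 in tumors 2 to 5. With other kept barcodes r was 0.833, 0.830, 0.735 and 0.825 in controls and 0.817, 0.649, 0.520 and 0.610 in tumors 2 to 5. In tumors 3 and 4 this exceeded r with free RNA, in tumor 4 from 8 members. The member sums held 96765 to 222513 UMIs outside the rule genes in controls and 64964, 200787, 15789 and 30821 in tumors 2 to 5. Few UMIs lower r by counting error alone, so r is not compared between mice or conditions. This is a description across genes, which are not independent and share a library. In tumor 3 the free RNA barcodes also lie among those considered. The erythroid lists outside the rule genes summed to 2.13, 2.91, 2.92 and 2.52% of UMIs outside the rule genes in control members and to 3.64, 13.5, 2.81 and 2.76% in tumors 2 to 5. In free RNA they summed to 1.63 to 1.69% in controls and 1.23 to 2.60% in tumors, so tumor 3 stood far above its free RNA. The most abundant transcripts beside haemoglobin were Gm42418, AY036118, the nuclear RNA Malat1 and mitochondrial transcripts such as mt-Nd2 and mt-Co1.

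Erythroid transcripts were higher in members with a larger haemoglobin share. In controls Bpgm was 212 CPM in the 23 members with 5 to 20% haemoglobin, 660 CPM in the 106 with 20 to 40%, 1960 CPM in the 168 with 40 to 60% and 4279 CPM in the 9 with 60 to 80%. Malat1, which is kept in the nucleus, made 3.33, 3.87, 0.867 and 0.755% of UMIs outside the rule genes in the same bins. In tumors Bpgm was 260, 815, 938 and 3941 CPM in these bins, which held 10, 16, 27 and 63 members, and 21985 CPM in the 150 members above 80%. Without tumor 3 it was 584, 930, 1141, 4174 and 14193 CPM in bins of 4, 7, 22, 54 and 3 members. At 40 to 60% haemoglobin, with 168 control and 27 tumor members, the pooled Bpgm value was higher in controls. At 60 to 80% the values lay closer together, with 9 control members in that bin, and the bin above 80% held tumor members only. These are sums over members pooled across mice, with no value per mouse and no test. The bins use the haemoglobin share, which chose the members. With fewer other UMIs both this share and the CPM of Bpgm rise, so part of the trend is built in.

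**Figure D4:**
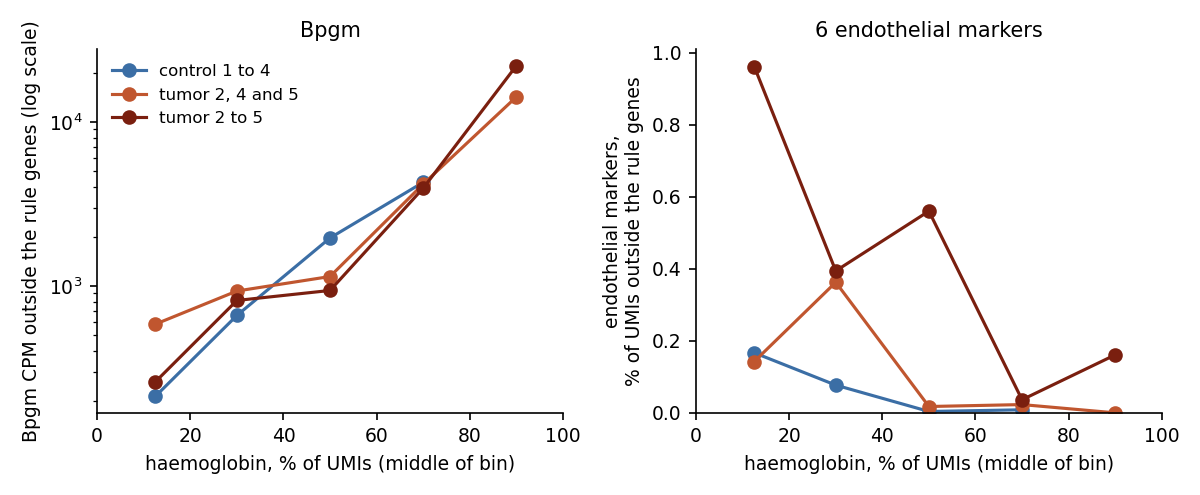
Members were binned by haemoglobin share on the horizontal axis. One panel gives Bpgm CPM outside the rule genes on a logarithmic axis and the other the 6 endothelial markers as percent of UMIs outside the rule genes, for controls, for tumors 2 to 5 and for tumors without tumor 3. Bpgm goes up with haemoglobin in all 3 lines, from 212 to 4279 CPM in controls.

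Tumor and control members were compared to ask which transcripts beside haemoglobin differ between the conditions. Of 2454 genes tested in members of 4 controls and 3 tumors, 975 (39.7%) differed, 480 higher (19.6%) and 495 lower (20.2%) in tumors (edgeR's quasi-likelihood test, Benjamini-Hochberg adjusted p under 0.05). For 249 genes (10.1%) every tumor lay above every control, and for 885 (36.1%) every control lay above every tumor. Of the 975 genes, 34 (3.49%) also passed the test below of whether the tumor effect differed between members and other barcodes. For the other genes, a tumor effect in members unlike that in other barcodes was not shown. Passing both tests does not make a difference one of members alone. Other barcodes can change more, as for Ube2c below. The outcome changed with the scaling factors and with what a gene was counted against. The median log2 difference over all genes was -0.08 per UMI outside the rule genes with TMM scaling factors, and -0.61 on the same totals without them, where 45.9% differed, 298 higher (12.1%) and 829 lower (33.8%). Counted per member, again without scaling factors, it was -1.43, and 62.4% of 2299 genes differed, 94 higher (4.09%) and 1340 lower (58.3%). Counted per UMI of haemoglobin and Alas2, the genes that chose the members, it was -2.37. The scales per member and per haemoglobin UMI were added after seeing the data.

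Per UMI outside the rule genes with TMM factors, many haem, iron, enzyme and organelle clearance transcripts were higher in tumor members, and much of this rested on tumor 3. Bpgm was higher by 2.88 ± 0.69 on the log2 scale (edgeR adjusted p = 0.00850), Mkrn1 by 2.75 ± 0.62 (edgeR adjusted p = 0.00653) and Ftl1 by 3.39 ± 0.74 (edgeR adjusted p = 0.00555). All 4 tested haem synthesis genes, 6 of 8 iron genes, 9 of 14 enzymes and 8 of 13 organelle clearance genes were higher in tumors, with medians of 2.23, 2.31, 1.97 and 1.73. Without scaling factors 3 of 4, 5 of 8, 8 of 14 and 6 of 13 were. The enzymes Sod1 (-1.20) and Aldoa (-0.95), which most cells use, were lower. Membrane genes went both ways, with 2 higher and 2 lower (Add2 at -2.26 and Dmtn at -1.46) of 7 and a median of 0.32, as did erythroid transcription factors, with 1 higher and 1 lower of 2. Without tumor 3 the counts of higher genes were 1 of 4, 2 of 8, 2 of 12 and 1 of 13, with medians of 0.69, 0.65, 0.21 and 0.52, while 2 enzymes and 1 of 6 membrane genes were lower and Add2 no longer passed (-1.95, edgeR adjusted p = 0.117). Over all genes of that fit 356 of 2502 (14.2%) were higher, a share near that of these 4 lists. In that fit Bpgm (1.10, edgeR adjusted p = 0.0125), Mkrn1 (1.27, edgeR adjusted p = 0.00435) and Ftl1 (1.77, edgeR adjusted p = 0.00289) passed, while Fech (0.60, edgeR adjusted p = 0.131) and Slc25a37 (0.34, edgeR adjusted p = 0.371) did not. Among members with at least 50% haemoglobin, where 34 of 648 genes passed, none of these 4 lists had a gene past the threshold, with medians of 2.61, 1.92, 1.99 and 1.59. That fit holds controls 2 and 3 and tumors 2 and 3 alone, and in these mice without the haemoglobin limit the lists had 0, 0, 0 and 1 genes past the threshold.

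Counted per member, the transcripts named above as higher in tumors differed less, while the lower ones differed more, with Aldoa at -2.16 and Add2 at -3.55. Bpgm had 1.05, 3.44, 3.13 and 2.53 UMIs per member in controls and 2.34, 14.9, 4.62 and 3.29 in tumors 2 to 5. Slc25a37 had 0.493, 0.786, 0.806 and 1.06 UMIs per member in controls and 0.459, 1.56, 0.125 and 0.524 in tumors. Tumor 3 stood above all controls for both genes. For Bpgm tumors 2 and 5 lay within the control range and tumor 4, with 8 members, above it, while for Slc25a37 tumor 5 lay within it and tumors 2 and 4 below. On this scale 2 of 4 haem, 3 of 8 iron, 4 of 12 enzyme and 2 of 13 organelle clearance genes were higher in tumors, 3 of the enzymes were lower, and of 7 membrane genes 2 were higher and 3 lower, with a membrane median of -0.99. The lower shares of enzymes and membrane genes thus lay below the 58.3% of all genes. Without tumor 3, a fit added after seeing the data, 0 genes of these 5 lists were higher on this scale, and 1 of 9 iron, 3 of 12 enzyme, 1 of 13 organelle clearance and 5 of 7 membrane genes were lower. The medians were then -0.27 for haem, -0.51 for iron, -0.82 for enzymes, -0.50 for organelle clearance and -1.77 for membrane genes, beside -1.34 over all genes, of which 68 of 2721 were higher (2.5%) and 1089 lower (40%). Bpgm was at 1.44 (edgeR adjusted p = 0.0173) and Slc25a37 at 0.17 (edgeR adjusted p = 0.758) with all 7 mice, and at 0.14 (edgeR adjusted p = 0.829) and -0.69 (edgeR adjusted p = 0.248) without tumor 3.

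Counted per haemoglobin UMI, Bpgm, Mkrn1, Fech, Slc25a37, Gpx1, Tent5c and Isg20 had values below 0. This scale divides by the genes that chose the members and lowers all genes together, so it is given as a description. Bpgm had 1.26, 2.18, 2.03 and 1.64 UMIs per 1000 haemoglobin UMIs in controls and 1.58, 1.30, 2.72 and 1.69 in tumors 2 to 5, with overlapping groups. Slc25a37 had 0.588, 0.499, 0.521 and 0.685 in controls and 0.310, 0.137, 0.0734 and 0.270 in tumors, so every tumor lay below every control. Over all genes of this scale 1325 of 2477 (53.5%) were lower in tumors and 2 higher (0.0807%), so a lower value is not particular to Slc25a37. The log2 difference was -1.29 for Slc25a37 (edgeR adjusted p = 0.167) and -0.22 for Bpgm (edgeR adjusted p = 0.794). Neither passed, and both lay above the median of -2.37 over all genes. List medians were -0.57 for haem, -0.94 for iron, -1.18 for enzymes, -1.06 for organelle clearance and -2.20 for membrane genes.

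**Figure D5:**
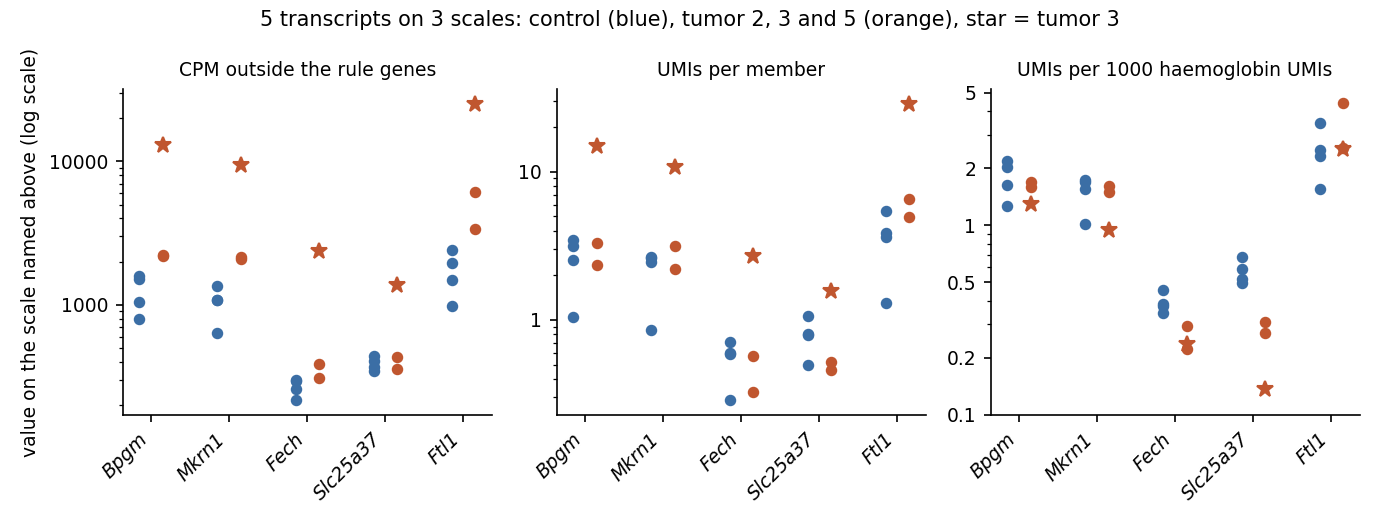
Bpgm, Mkrn1, Fech, Slc25a37 and Ftl1 in members of controls 1 to 4 and tumors 2, 3 and 5 (a star marks tumor 3), as CPM outside the rule genes, as UMIs per member and as UMIs per 1000 haemoglobin UMIs, each on a logarithmic axis. Tumor 3 is the highest point of each gene on the first pair of scales. On the third scale, which divides by genes that chose the members, Slc25a37 is at most 0.310 in tumors and at least 0.499 in controls.

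Among the transcripts with the smallest p between tumor and control members were genes of neurons, choroid plexus and vessels. Ttr, transthyretin of the choroid plexus, stood at 1250, 1411, 1891 and 1675 CPM in control members (1557 ± 283 SD, n = 4) and had 0 UMIs in members of tumors 2 to 5. It was at least 154-fold lower in tumors 2, 3 and 5 against a floor of 3 counts over these mice, or at least 49.7-fold without tumor 3. In free RNA of the same libraries Ttr stood at 1553 to 2451 CPM in controls and 0 to 6.06 CPM in tumors. Vsnl1, a neuronal calcium sensor (-4.37), Nme7 (-3.75), Stmn3 (-2.89), Scg2 (-4.59), Stmn2 (-2.82) and Rab6b (-2.89) were lower, and of the 8 neuronal markers 7 were. Vsnl1 was lower in free RNA of the tumors too, at 52.6 to 96.2 CPM in tumors 2, 3 and 5 against 549.9 to 636 CPM in controls.

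Col4a1 of basement membrane (5.38), Fn1, fibronectin (5.15), Dlk1, a marker of progenitors and tumor cells here (5.13), Rras (4.32), Ifitm3 (3.96), Gnai2 (3.33), Pon2 (3.27) and Atp6v0e (2.86) were higher in tumor members. Dlk1 stood at 51.7, 8.99, 15.1 and 24.5 CPM in control members and 924, 234 and 779 CPM in tumors 2, 3 and 5, and at most 26.5 CPM in free RNA of controls and 495 to 677 CPM in that of these tumors. Members and free RNA thus differed between the conditions in the same direction. All 3 tested markers of neural progenitors and tumor cells, Dlk1 among them (median 4.61), all 4 tested microglia markers (3.62), all 5 endothelial markers (3.36) and all 5 interferon-stimulated genes (3.63) were higher, as were 4 of 5 astrocyte markers (1.53) and 6 of 8 translation factors (1.18), while 0 of 5 oligodendrocyte markers passed. Without tumor 3, 3 of 3 progenitor and tumor markers (median 5.18), 4 of 4 microglia, 4 of 5 interferon-stimulated, 3 of 5 astrocyte and 1 of 5 endothelial genes were higher, the last with a median of 1.79. In that fit 1 of 8 translation factors was higher (median 0.58) and 2 of 5 oligodendrocyte markers were lower. The astrocyte and translation counts also depended on the scaling. With no scaling factors 1 astrocyte marker was higher and 1 lower (median 0.99), and 2 translation factors were higher and 1 lower (0.65). Counted per member with all 7 mice, 0 of 3 astrocyte markers were higher and 1 was lower (-0.18), and 0 of 8 translation factors were higher and 1 was lower (-0.13). The endothelial UMIs came from few members, 11 of 176 in tumor 3 with 94.6% of its endothelial UMIs and 2 of 21 in tumor 5 with 99.0%, and in both tumors these had a lower median haemoglobin share than the rest (28.3 against 94.5% and 27.8 against 66.1%). Without the 21 members rich in endothelial UMIs, and so without tumor 5, Cldn5, of endothelial tight junctions, was the endothelial marker still tested. It was higher (3.93), and it is among the genes that chose the members left out. In the same mice with all members 4 of 5 endothelial markers were higher (median 3.35).

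Of 3 tested proliferation genes, Ube2c (3.44, edgeR adjusted p = 0.00330) and Hmgb2, a chromatin protein (4.01, edgeR adjusted p = 0.00132), were higher in tumor members, and Stmn1 did not pass (-0.52, edgeR adjusted p = 0.212). Hmgb2 stood at 41.3, 13.5, 52.7 and 6.11 CPM in control members and 554, 105 and 389 CPM in tumors 2, 3 and 5, against 14.6 to 21.2 CPM in other control barcodes and 215 to 952 CPM in other barcodes of these tumors. Every tumor lay above every control. Without tumor 3 Ube2c was not tested, and Hmgb2 (4.54) and Top2a, a topoisomerase of dividing cells (6.31), were higher. Without the members rich in endothelial UMIs and tumor 5, Ube2c and Hmgb2 did not pass the filter on low counts, and 0 of 2 tested genes were higher. The part of free RNA and of other cells in these differences was not tested.

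Whether the tumor effect differed between members and the other kept barcodes was tested by an interaction term. It did for 88 of 15741 genes (0.559%), 51 of them higher (0.324%) and 37 lower (0.235%) in members relative to other barcodes (edgeR's quasi-likelihood test, Benjamini-Hochberg adjusted p under 0.05). The count depended on single mice and on the tool, with 40, 5, 19 and 19 genes without controls 1 to 4, 188, 610 and 139 without tumors 2, 3 and 5, 14 in DESeq2 and 1643 in limma voom. Directions varied as well, with 23 higher and 73 lower after doublets were removed and 45 and 120 with no Alas2 condition. They were 17 and 41 with at least 500 genes, 42 and 62 under 10% mitochondrial UMIs, and 57 and 12 with all deposited barcodes. Isca1, of iron-sulphur cluster assembly, had an interaction of 2.31 ± 0.41 (edgeR adjusted p = 6.62e-05). Its members stood at 62.0, 117, 128 and 116 CPM in controls and 139, 1180 and 227 CPM in tumors 2, 3 and 5, while other barcodes had 25.4 to 31.2 CPM in controls and 16.5 to 33.9 CPM in tumors. Tumor members lay above control members, tumor 3 by far, and other barcodes overlapped. Also higher were Dhrs11 (4.00), Cd200 (2.25), Gda (2.23), Ube2o (2.12), March2, a ubiquitin ligase (2.09), and Fech (1.94). Without the members rich in endothelial UMIs, and so without tumor 5, Cd200 was at -0.52.

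Among the erythroid lists, 3 of 15 haem, 2 of 17 enzyme, 2 of 16 membrane, 2 of 21 organelle clearance and 1 of 17 iron genes were higher in this test and 0 lower, beside 0.324% higher over all genes. Without tumor 3 the direction turned, with 610 of 16802 genes past the threshold (3.63%), 8 higher (0.0476%) and 602 lower (3.58%). In that fit 0 genes of these lists were higher, and 1 of 15 haem, 5 of 17 enzyme, 1 of 17 membrane, 5 of 21 organelle clearance and 4 of 17 iron genes were lower. None of the 7 higher genes named passed in that fit, with Isca1 at 0.65 (edgeR adjusted p = 0.832) and Fech at 0.40 (edgeR adjusted p = 0.903).

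Lower in members relative to other barcodes were Ube2c (-3.33), Vtn (-2.50), Tubb3 (-2.44), Igfbp5 (-2.30), Cxcl12 (-2.25), Rgs5, a pericyte gene (-2.09), Ucp2, a mitochondrial carrier (-2.01), and Kcnc1. Ube2c stood at 20.7, 53.9, 60.3 and 36.7 CPM in control members and 77.0, 623 and 130 CPM in tumors 2, 3 and 5, and at 0.655 to 0.941 CPM in other control barcodes and 34.1 to 108 CPM in other tumor barcodes. Both were higher in tumors, and the step was larger in the other barcodes. Kcnc1, a neuronal potassium channel, stood at 142 ± 35.5 CPM (SD, n = 4) in control members and had 0 UMIs in members of the tested tumors, at least 14.0-fold lower, or at least 4.52-fold without tumor 3. It was lower outside members too, at 147 to 175 CPM in other control barcodes against 33.0 to 56.7 CPM in those of tumors, and at 121 to 133 against 52.0 to 68.5 CPM in free RNA. Without the 21 members rich in endothelial UMIs, and so without tumor 5, the Rgs5 difference was 0.0986, against -3.78 in the same mice with all members. Without tumor 3, Vtn (-1.15, edgeR adjusted p = 0.135), Cxcl12 (-0.01, edgeR adjusted p = 1.0) and Kcnc1 (edgeR adjusted p = 0.063) did not pass.

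Ribosomal protein and Malat1 shares did not overlap between the conditions, either in members or in other kept barcodes. Ribosomal protein transcripts made 5.66, 6.6, 7.08 and 6.68% of UMIs outside the rule genes in control members and 11.8, 12.2 and 10.1% in tumors 2, 3 and 5, without overlap. The means of 6.5 ± 0.602% (SD, n = 4) and 11.4 ± 1.15% (n = 3) gave the smallest p the exact permutation test can give (p = 0.0286, adjusted p = 0.0857). In other kept barcodes of these mice they made 4.03 to 4.54% in controls and 12.4 to 16.0% in tumors. In free RNA of these mice they made 6.66 to 7.28% in controls and 10.1 to 10.8% in tumors. Malat1 made 3.20, 1.93, 2.12 and 2.56% in control members and 0.660, 1.08 and 1.02% in these tumors, again without overlap (2.45 ± 0.565% against 0.920 ± 0.227%, exact permutation p = 0.0286, adjusted p = 0.0857). Among members with at least 50% haemoglobin the difference was -0.148 percentage points against -1.53 for all members, with controls 2 and 3 and tumors 2 and 3 alone. By haemoglobin share the control level was the higher one below 40%, at 3.33 and 3.87%, where tumor members had 1.68 and 1.08% (1.00 and 1.14% without tumor 3). At 40 to 60% controls had 0.867% and tumors 1.83% (0.785% without tumor 3), and at 60 to 80% they had 0.755 and 0.825% (0.445%). In other barcodes Malat1 made 7.41 to 8.51% in controls and 1.71 to 2.77% in tumors. In free RNA it made 0.871 to 1.22% in controls and 0.838 to 1.09% in tumors 2, 3 and 5, with overlap. Markers of other cells together made 1.52 ± 0.255% in control and 1.43 ± 0.530% in tumor members, which did not differ beyond the spread (exact permutation p = 0.743, adjusted p = 0.743).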

How the data were processed

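Single-cell RNA-seq (10x 5′) of 9 mice was analysed from the deposited matrices of UMI counts per gene and barcode, not normalized. The authors made these counts with Cell Ranger, version 6.1.2 per the file headers and 7 in the submitters' processing notes, which also name Scanpy 1.8.2 and mm10. Samples were grouped by genotype label. For control 4 the barcode and feature lists are shorter than the matrix, so its columns were used by position with the feature list of the other libraries.

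The members and gene lists (225 genes in 20 lists) were chosen with earlier results of these data known. UMIs were summed per mouse, with totals that leave out the 4 haemoglobin genes and Alas2. Genes were tested with edgeR 4.0.16 (quasi-likelihood, TMM, filterByExpr, R 4.3.3) in controls 1 to 4 and tumors 2, 3 and 5, which hold at least 20 members. Fold changes are log2 with Benjamini-Hochberg adjustment. Nothing says whether the mice of a group shared a litter or run. Shares and per-mouse measures were tested two-sided by exact permutation of the mice (Python 3.11.15, scipy 1.17.1). Doublets were called with Scrublet at 0.8% per 1000 barcodes and kept in the main result (0 to 4 members per mouse were called). Intervals and floors cover counting error only. Alternatives included DESeq2 1.42.0 and limma 3.58.1.

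Genes named are those of the lists, the 8 higher and 8 lower with the smallest p in the tumor-control and interaction tests that kept their direction with each mouse left out, the 20 largest differences from other barcodes at 200 CPM or more and higher in every mouse, the 10 most abundant, and the rule genes. Promoters came from RefSeq (GRCm38.p6). No genome sequence was used. Results for some genes are not reported here.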

Additional observations from a re-analysis of the deposited data

Results flagged for a closer look

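Among 68 sets of values checked for a mouse far from the others, 3 stood out, where chance gives about 1 in 20. These were Cd200 at 85.4 CPM in members of control 2, mt-Co2 at 17806 CPM in control 3 and mt-Cytb at 10293 CPM in control 1. Each set held the 4 control values, save the member share of the tumor mice. Rule genes were counted in the 68 but could not be flagged.

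Of the 88 genes whose difference between members and other barcodes was not the same in tumor and control mice (edgeR interaction term, adjusted p under 0.05), 15 named by the smallest p in each direction are given. The values below compare tumor effects and are not levels in tumor members, where Ube2c for example was higher than in control members. The tumor effect, on the log2 scale, was higher in members than in other barcodes for Dhrs11 (4.00), Isca1 (2.31), Cd200 (2.25), Gda (2.23), Ube2o (2.12), March2 (2.09) and Fech (1.94). It was lower in members for Kcnc1 (-12.03, with 0 UMIs in the tumor members tested, so that the size is no bound), Ube2c (-3.33), Vtn (-2.50), Tubb3 (-2.44), Igfbp5 (-2.30), Cxcl12 (-2.25), Rgs5 (-2.09) and Ucp2 (-2.01). Of these, Vtn, Cxcl12 and Rgs5 are genes of vessel walls and stroma, and the cause of their differences was not tested.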

How the results depend on the processing

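The UMIs outside the rule genes, the alpha globin share, the ribosomal share and the Malat1 share of tumor members kept their sign in all alternatives run. Most alternatives with fewer mice could not give an adjusted p under 0.05, so only values are given. With 1 mouse left out the differences were -1252 to -925 UMIs, -9.20 (without tumor 3) to -2.04 (without tumor 5), 4.44 to 5.51 and -1.71 to -1.28 percentage points. The UMI difference was -391 with 500 genes against -1047, and that of Malat1 was -0.148 at 50% haemoglobin (controls 2 and 3, tumors 2 and 3) and -0.484 without the members richest in markers, against -1.53. The member share (-0.265) was 0.648 thinned to 1000 UMIs, 0.561 with all deposited barcodes, 0.407 at 50% haemoglobin and -0.790 with 500 genes, and -0.724 (without tumor 3) to -0.0682 (without tumor 1) with 1 mouse left out. The Hbb-bt share (1.39) was -0.873 at 50% haemoglobin and -0.0186 (without tumor 3) to 3.07. The other-cell marker share (-0.0912) was 0.402 at 50% haemoglobin, 0.0284 with 2 Alas2 UMIs, 0.0196 with no Alas2 condition, 0.120 without members of 5 endothelial UMIs, 0.0304 without the members of each mouse richest in markers, 0.105 in mice with 50 members, 0.277 with the replicate block, and -0.392 to 0.105.

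Genes differing between tumor and control members (975) were 34 at 50% haemoglobin, where controls 2 and 3 and tumors 2 and 3 remain (266 in these mice without that limit), 1719 with no filter and 640 (without control 2), 645 (without control 4) to 1172 with 1 mouse left out. Higher and lower genes were 298 and 829 with no scaling factors and 432 and 287 without members of 5 endothelial UMIs, which also drops tumor 5 (601 and 496 in these mice with all members). Genes differing between members and other barcodes (1710) were 509 with all barcodes, 286 at 50% haemoglobin, 654 in DESeq2, 2621 in limma voom (2045 higher, 576 lower) and 248 against free RNA. They were 1088 (without control 4), 1098 (control 3) and 1105 (control 2) to 1782. Interaction genes (88) were 58 with 500 genes, 5 at 50% haemoglobin, 165 with no Alas2 condition, 182 without members of 5 endothelial UMIs, 168 without the members richest in markers, 14 in DESeq2, 1643 in limma voom (1354 higher, 289 lower), 233 with no scaling factors (64 higher, 169 lower), 52 with no filter, 139 in mice with 50 members and 224 against free RNA. They were 40, 5, 19 and 19 without controls 1 to 4, and 188, 610 and 139 without tumors 2, 3 and 5. The causes were not tested.

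In their other kept barcodes same-numbered mice did not deviate together (r = 0.111, 0.0127, 0.00737 and 0.0334 over 16521 genes), so the numbers were not taken as pairs. In members r was -0.294 for number 2 and 0.231 for number 3 over 922 genes. For mice of unlike number it was -0.299 to 0.297. With the replicate block 455 genes differed between tumor and control members, against 266 in the same mice without it. The other gene tests hold the mouse as a block already. Per haemoglobin and Alas2 UMI the difference was -1.06 for Tent5c, -0.22 for Bpgm, -0.15 for Mkrn1, -0.33 for Isg20, -0.47 for Gpx1, -1.29 for Slc25a37 and -0.65 for Fech, and with 500 genes -0.088 for Slc25a37. Per member without tumor 3 it was -0.31 for Ube2l6, -0.54 for Tent5c, -0.23 for Gpx1, -0.69 for Slc25a37 and -0.36 for Fech. In the interaction Rgs5 was 10.12 at 50% haemoglobin and 0.0986 without members of 5 endothelial UMIs (-3.78 in the same mice with all members), Cxcl12 was 9.91 and Cd200 -0.52 in these fits. Leaving out members with 3 marker UMIs of other cells left no control member, so it gave no value.

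Tumor 1 has no member and tumor 4 only 8, so tumor results rest on 3 mice, of which tumor 3 holds most members. Transcripts with few UMIs per member limit what single members show.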
